A study of Mus musculus with 6 samples.

Results

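The genes described here make and regulate cholesterol: 28 genes of the mevalonate pathway, of the sterol branch that follows it, and of SREBP2, the transcription factor that controls both. They were taken by gene name from a table of 35275 genes, and all 28 were found. All 28 also passed the filter on low counts, which left 12651 genes for testing. RNA was sequenced in 6 libraries of NIH3T3, an immortal fibroblast line from mouse embryos. Libraries 1 to 3 of the wild-type group came from the parental line with no treatment. The other 3 libraries came from NIH3T3 cells stably carrying a plasmid for HA-tagged NgBR, kept by G418 selection, and are called here the libraries labelled NgBR overexpression. The medium of both lines held 10% calf serum, a source of cholesterol. The labels name no empty-vector or G418-treated control among these libraries and do not say whether the stable line is a clone or a pool. They also do not say whether the replicates were separate cultures, so p-values measure the spread between libraries, which may be technical.

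Cells build cholesterol from acetyl-CoA. Acetyl groups are joined to HMG-CoA and reduced to mevalonate, which is phosphorylated and decarboxylated to the isoprene unit isopentenyl diphosphate. Isoprene units are joined to farnesyl diphosphate, where the pathway branches to geranylgeranyl groups, dolichol, ubiquinone and, through squalene, cholesterol. When membrane sterol is low, SCAP escorts SREBP2 from the endoplasmic reticulum to the Golgi, where the site-1 and site-2 proteases release its active part to switch on these genes. When sterol is high, INSIG proteins hold SCAP and SREBP2 back. NgBR sits on the dolichol branch: with DHDDS it forms the enzyme that lengthens farnesyl diphosphate toward dolichol.

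Levels are given as CPM, counts normalised to library size with TMM scaling factors. Total counts were 29515072 to 35511769 in the wild-type libraries and 7369961 to 10358381 in the others. The lowest count of any of the 28 genes in any library was 33. Nus1, the gene of NgBR, was at 187 to 233 CPM in wild type and 165 to 185 CPM in the libraries labelled NgBR overexpression. Every labelled library lay below every wild-type one, by as little as 185 against 187 CPM, as was so for 9.37% of tested genes. The log2 ratio was -0.24 with SE 0.21 (adjusted p = 0.786 by edgeR), so counts at the mouse gene do not rise with the label. The species of the transgene, and so whether its reads would be counted there, is not stated in the labels. Fibroblast markers summed to at least 20280 CPM in every library, while epithelial, endothelial, leukocyte, adipocyte and hepatocyte markers each summed to at most 3.19 CPM. Epcam, Krt18, Ttr and Cidec were at 0 counts in all 6 libraries. One library stood apart for the sterol genes. Wild-type library 2 was below the mean of wild-type libraries 1 and 3 for 24 of the 28 genes, against 51.3% of all tested genes. It was the lowest of all 6 libraries for 19 of the 28, a count not taken over all tested genes. Values are therefore given by library, and the comparison of the groups with and without that library.

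**Figure D1:**
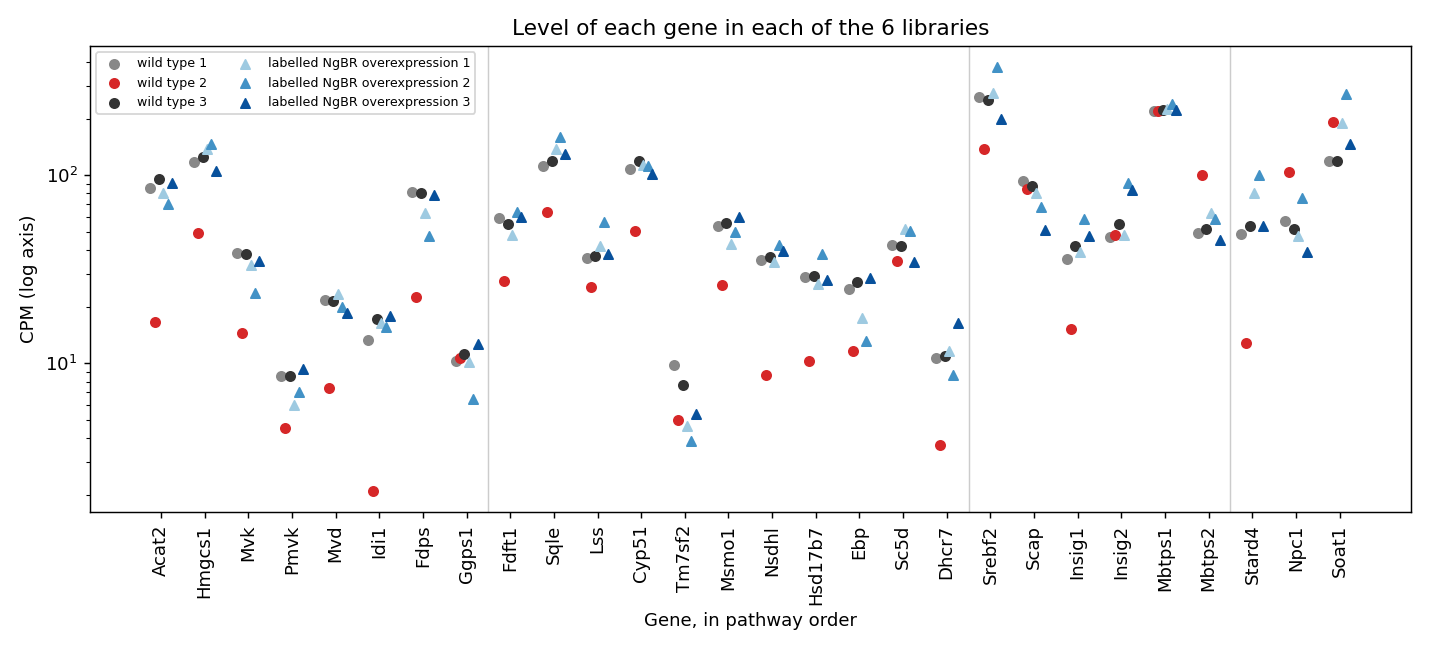
CPM (log axis) of each of the 28 genes, in pathway order, in each library: circles are wild type, triangles the libraries labelled NgBR overexpression, and red circles wild-type library 2. The red circle is the lowest of the 6 points for 19 genes and the highest for 2, Mbtps2 and Npc1.

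Promoters of the 28 genes are shown first, and their part in the differences between libraries was not tested. RefSeq promoters of the mm10 assembly (GRCm38.p6) were matched for 23 of the 28 genes, with 29 start sites. Fdft1, Fdps, Npc1, Sqle and Stard4 had no entry. The 250 bases before each start were searched on both strands for the sterol regulatory element TCACNCCAC, for CCAAT, the site of the SREBP partner NF-Y, and for the GC box GGGCGG, the site of SP1. Matches of different motifs were allowed to overlap. A gene with more than 1 start site was scored by the site with the most matches, while shares of all promoters count each site on its own. CCAAT was present in 19 of 23 genes (82.6%), against 41.4% of the 9115 tested genes with an entry and 33.8% of all 32851 promoters. At least 2 CCAAT matches were found in 11 of the 23 genes, against 15.5% of the tested genes. The GC box was in 19 of 23 (82.6%) as well, against 64.9% of the tested genes and 32.7% of all promoters, and at least 2 matches were in 10 of 23, against 37.9% of the tested genes. The 9-letter sterol element was found in 1 gene, Hmgcs1 (4.35%), against 1.22% of tested genes and 1.05% of all promoters. Matches are descriptions of these windows and not evidence of binding. The 150 bases before the start are printed 5′ to 3′ for Hmgcs1, the gene with the sterol element, for 3 enzymes that were low in wild-type library 2, and for Mbtps1, whose level was nearly the same in all libraries. The last 4 were chosen after their values were seen. Capitals mark the sterol element and CCAAT or its complement ATTGG. They lie on mm10 at chr13:119690201-119690350, plus strand (Hmgcs1), chr5:114444119-114444268, plus strand (Mvk), chr8:122443423-122443572, minus strand (Mvd), chrX:72918371-72918520, plus strand (Nsdhl), and chr8:119558762-119558911, minus strand (Mbtps1).
Hmgcs1: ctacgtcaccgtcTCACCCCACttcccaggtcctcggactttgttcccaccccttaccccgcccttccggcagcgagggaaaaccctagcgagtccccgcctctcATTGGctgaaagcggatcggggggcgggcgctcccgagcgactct
Mvk: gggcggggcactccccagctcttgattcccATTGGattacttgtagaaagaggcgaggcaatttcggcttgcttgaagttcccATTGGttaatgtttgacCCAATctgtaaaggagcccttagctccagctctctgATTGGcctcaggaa
Mvd: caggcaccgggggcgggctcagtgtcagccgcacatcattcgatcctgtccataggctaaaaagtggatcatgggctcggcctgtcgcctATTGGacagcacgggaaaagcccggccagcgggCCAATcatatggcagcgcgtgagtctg
Nsdhl: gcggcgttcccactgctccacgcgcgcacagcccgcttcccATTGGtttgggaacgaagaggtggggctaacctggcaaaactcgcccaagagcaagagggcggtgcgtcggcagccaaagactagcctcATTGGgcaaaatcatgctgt
Mbtps1: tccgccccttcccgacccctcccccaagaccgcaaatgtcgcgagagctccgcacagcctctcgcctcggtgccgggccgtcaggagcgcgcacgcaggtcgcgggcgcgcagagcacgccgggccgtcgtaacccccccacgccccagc
In these stretches Hmgcs1 held the sterol element from base 137 to base 129 before the start and 1 CCAAT match, and 2 more CCAAT matches lay further upstream. Mvk held 4 CCAAT matches, Mvd and Nsdhl 2 each, and Mbtps1 none. The printed genes do not stand for all 23. Of 12 genes at least 2-fold lower in wild-type library 2, 11 held CCAAT, 9 of them at least 2 matches. Of the 11 other genes, 8 held it, 2 of them at least 2 matches. Acat2 was among the lower genes and held none. Ggps1 held 3 and Insig2 up to 3, and both were among the others. How these matches relate to the levels was not tested.

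The first enzymes of the pathway were low in wild-type library 2. Acat2, the cytosolic thiolase that joins 2 acetyl-CoA units, was at 85.7, 16.6 and 95.2 CPM in libraries 1 to 3 of wild type, and the libraries labelled NgBR overexpression held 80.0, 70.2 and 91.0 CPM. Library 2 of wild type was 5.43-fold below the mean of wild-type libraries 1 and 3, and the other 5 libraries lay close together. Hmgcs1, the HMG-CoA synthase, was at 117, 49.4 and 125 CPM in wild type and 138, 147 and 105 CPM in the labelled libraries. Again the single low library was wild-type library 2, here 2.45-fold below the other wild-type libraries.

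The kinases and the decarboxylase that turn mevalonate into isopentenyl diphosphate followed. Mvk, mevalonate kinase, was at 38.5, 14.5 and 37.9 CPM in wild type and 33.1, 23.6 and 35.2 CPM in the labelled libraries. Mvd, the decarboxylase, was at 21.7, 7.38 and 21.3 CPM, and 23.4, 19.9 and 18.4 CPM. Both were lowest in wild-type library 2, by 2.63-fold and 2.92-fold against wild-type libraries 1 and 3. Pmvk, phosphomevalonate kinase, was 1.90-fold lower there, at 4.50 CPM against 8.56 and 8.55 CPM.

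Idi1 showed the widest gap of the 28 genes. It encodes the isomerase that makes dimethylallyl diphosphate, and lies on mm10 chromosome 13, 8885501 to 8892451, plus strand. Wild type held 13.2, 2.10 and 17.2 CPM, from 462, 62 and 573 counts, and the labelled libraries 16.3, 15.6 and 17.8 CPM. Wild-type library 2 was thus 7.26-fold below the mean of libraries 1 and 3, rank 10 from the lowest among the 12651 tested genes. Fdps, which makes farnesyl diphosphate, the branch point of the pathway, was at 81.7, 22.5 and 80.4 CPM in wild type and 62.7, 47.7 and 78.7 CPM in the labelled libraries. Ggps1, the synthase of the geranylgeranyl branch, did not share the gap. It was at 10.3, 10.7 and 11.1 CPM in wild type, and among the labelled libraries was lowest in library 2, at 6.43 CPM against 10.1 and 12.7.

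In the sterol branch, all 11 genes from squalene synthase to the last reductases were below the other wild-type libraries in wild-type library 2. Nsdhl, a sterol dehydrogenase of the demethylation complex, was at 35.2, 8.66 and 36.6 CPM in wild type and 34.4, 42.6 and 39.7 CPM in the labelled libraries. Dhcr7, which reduces 7-dehydrocholesterol to cholesterol, was at 10.7, 3.65 and 10.9 CPM, and 11.6, 8.71 and 16.3 CPM. Wild-type library 2 was 4.14-fold and 2.95-fold below libraries 1 and 3 for these genes.

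The gap was narrower for other enzymes of this branch. It was 2.80-fold for Hsd17b7, the sterol ketone reductase, and 2.25-fold for Cyp51, the lanosterol demethylase. It was 2.24-fold for Ebp, the sterol isomerase, and 2.09-fold for both Msmo1, the sterol methyl oxidase, and Fdft1, squalene synthase. Sqle, the squalene epoxidase and a rate-limiting step of the branch, was 1.82-fold lower, at 112, 63.6 and 120 CPM in wild type against 138, 160 and 130 CPM in the labelled libraries. Lss, which closes the ring to lanosterol, was 1.44-fold lower, at 36.5, 25.5 and 37.0 CPM against 41.8, 56.3 and 38.0 CPM. Tm7sf2, a sterol reductase, and Sc5d, a sterol desaturase, were 1.76-fold and 1.22-fold lower. Sqle, Lss, Tm7sf2 and Sc5d were the genes of the branch with a gap under 2-fold.

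Among the genes of SREBP2 control, 2 followed the enzymes and 4 did not. Srebf2, the gene of SREBP2 (mm10 chromosome 15, 82147181 to 82205379, plus strand), was at 259, 138 and 252 CPM in wild type and 273, 376 and 199 CPM in the labelled libraries. Wild-type library 2 was 1.85-fold below libraries 1 and 3. Insig1, the INSIG gene that SREBP2 itself switches on (mm10 chromosome 5, 28071363 to 28078662, plus strand), was at 35.9, 15.2 and 41.9 CPM, and 38.9, 58.7 and 47.4 CPM. Its gap was 2.55-fold.

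Insig2, which is regulated separately from SREBP2, was level across wild type at 46.9, 47.9 and 54.8 CPM. In the labelled libraries it was at 47.9, 90.5 and 83.3 CPM, so that library 1 matched wild type and libraries 2 and 3 were higher. Scap was at 92.7, 84.0 and 87.5 CPM in wild type and 80.1, 68.0 and 50.8 CPM in the labelled libraries, where every library lay below every wild-type one. The proteases differed from each other. Mbtps1, the site-1 protease, was at 220, 221 and 223 CPM in wild type and 224, 239 and 222 CPM in the labelled libraries, the narrowest range of the 28 genes. Mbtps2, the site-2 protease, was at 49.3, 101 and 51.7 CPM in wild type and 63.0, 58.7 and 45.5 CPM in the labelled libraries, highest in wild-type library 2.

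The genes that move and store sterol went opposite ways in that library. Stard4, a sterol carrier and SREBP2 target, was at 48.6, 12.8 and 53.8 CPM in wild type and 80.3, 100.3 and 53.7 CPM in the labelled libraries, a gap of 3.99-fold below libraries 1 and 3. Npc1, which exports cholesterol from lysosomes, was at 57.3, 104 and 51.9 CPM in wild type and 47.7, 75.9 and 39.3 CPM in the labelled libraries. Soat1, which esterifies cholesterol for storage, was at 120, 191 and 119 CPM, and 189, 270 and 147 CPM. For Npc1 and Soat1, library 2 was the highest of its group on both sides, 1.90-fold and 1.61-fold above libraries 1 and 3 in wild type.

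Summed over the 8 genes from acetyl-CoA to isoprenoids, wild-type libraries 1 to 3 stood at 377, 128 and 397 CPM and the labelled libraries at 369, 337 and 368 CPM. Summed over the 11 from squalene to cholesterol, they stood at 522, 267 and 541 CPM, and 531, 599 and 541 CPM. In both series wild-type library 2 was low and the other 5 libraries lay close together.

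Over the whole set, 15 of 28 genes were at least 2-fold lower in wild-type library 2 than the mean of the other wild-type libraries, against 7.45% of all tested genes. These were 6 of the 8 genes from acetyl-CoA to isoprenoids and 7 of the 11 from squalene to cholesterol, besides Insig1 and Stard4. None was at least 2-fold higher, against 5.38% of tested genes. The median log2 deviation of that library was -1.46 for the first series, -1.06 for the second, -0.09 for SREBP2 control and -0.02 for all tested genes. By contrast, wild-type libraries 1 and 3 were within 1.2-fold of each other for 26 of the 28 genes, with a median ratio of 1.05. That count was not taken over all tested genes. Being 1 library, wild-type library 2 has no replicate, and its gap was not tested. In bulk RNA, less transcript per cell and fewer cells with the transcript cannot be told apart.

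**Figure D2:**
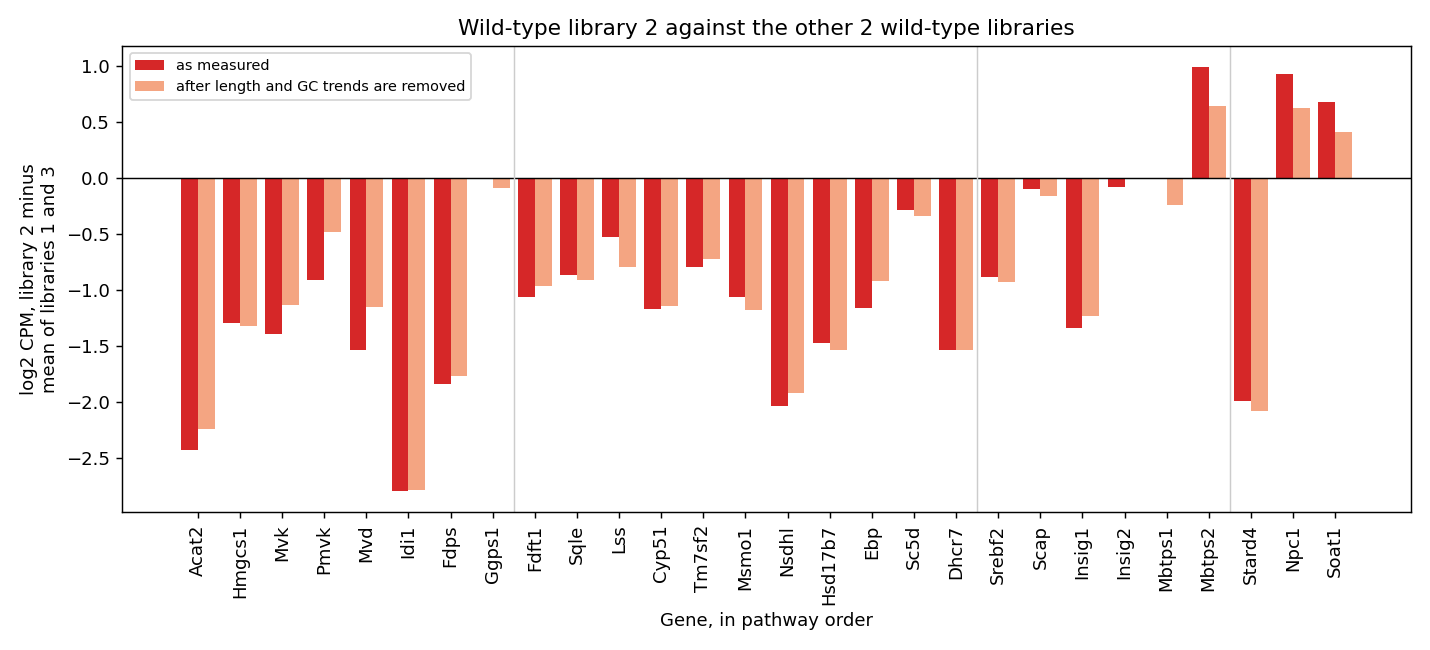
Bars show log2 CPM of wild-type library 2 minus the mean of wild-type libraries 1 and 3, for each gene as measured (red) and after trends with gene length and GC content were removed (orange). Idi1 is the lowest at -2.79 and -2.78, and Mbtps2, Npc1 and Soat1 are above 0 in both.

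Gene length moved with the libraries. The departure of each library from the average library, in log2 CPM over tested genes, had a Spearman correlation with exonic length of 0.242 in wild-type library 2 and 0.347 in labelled library 2, against -0.299 to 0.0684 in wild-type libraries 1 and 3 and labelled library 1, and -0.467 in labelled library 3. These are correlations across genes, which are not independent replicates. Mbtps2, Npc1 and Soat1, the genes above 0 in wild-type library 2 by more than 1.5-fold, have exonic lengths of 10105, 11317 and 9791 bases, against a median of 4384 bases over tested genes. With length and GC trends removed, their deviations were 0.64, 0.62 and 0.41 in place of 0.99, 0.93 and 0.68. The low genes moved by unequal amounts and in both directions. The median over the 28 genes was then -0.94 in place of -1.06, and 13 were still at least 2-fold lower, against 5.21% of tested genes. Pmvk was at -0.48 in place of -0.91, Mvd at -1.15 in place of -1.53, and Mvk at -1.13 in place of -1.39. Fdps was at -1.76 in place of -1.84, and Idi1 at -2.78 in place of -2.79. Others moved further down, among them Lss at -0.79 in place of -0.53, Msmo1 at -1.18 in place of -1.06, and Stard4 at -2.08 in place of -1.99.

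Other genes also set wild-type library 2 apart, and were chosen after their values were seen. Trib3, a target of the stress factors ATF4 and CHOP, was at 8.16, 159 and 7.07 CPM in wild type and at 20.3 to 26.8 CPM in the labelled libraries. Ddit3, which encodes CHOP, was at 18.9, 136 and 20.2 CPM, and 21.5 to 56.9 CPM. Tk1, a thymidine kinase of dividing cells, was at 64.5, 7.48 and 74.7 CPM, and 43.4 to 110 CPM. The mitochondrially encoded share of counts was 0.651% there, against 1.41% and 1.23% in wild-type libraries 1 and 3 and 0.383% to 0.839% in the labelled libraries. The part of these differences in the sterol genes' gap was not tested.

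**Figure D3:**
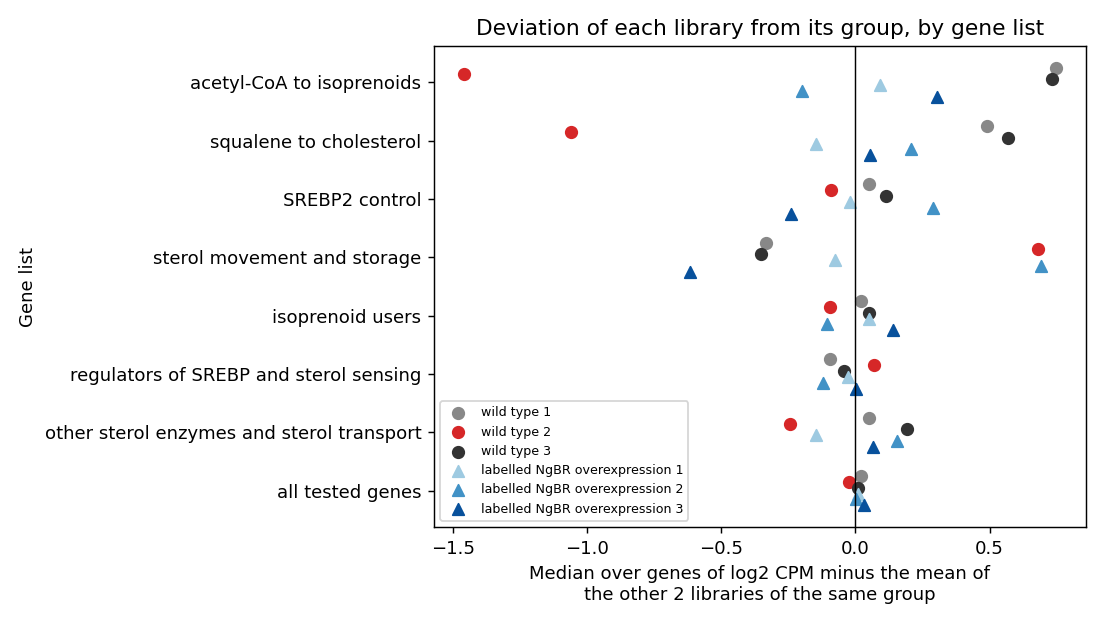
Each point is the median, over the genes of a list, of log2 CPM in 1 library minus the mean of the other 2 libraries of its group. Wild-type library 2 (red) lies at -1.46 and -1.06 for the enzyme series and near 0 for all tested genes, and the labelled libraries (triangles) lie at most 0.30 from 0 in those series.

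The comparison of the groups asks how the line labelled NgBR overexpression differs from wild type in these genes. None of the 28 was called by edgeR's quasi-likelihood test at an adjusted p under 0.05, against 3.39% of all tested genes (429 of 12651, with 2.04% higher and 1.35% lower). None reached an unadjusted p under 0.05 either, against 11.4% of tested genes, and DESeq2 called 0, against 5.68% of tested genes. The lowest adjusted p among them was 0.464. Fold changes were positive for 22 and negative for 6, with a median log2 fold change of 0.28 against -0.01 for all tested genes. That median was 0.07 without wild-type library 2, with 16 positive and 12 negative and 0 called (against 2.66% of tested genes in that fit), and -0.02 without both libraries numbered 2.

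**Figure D4:**
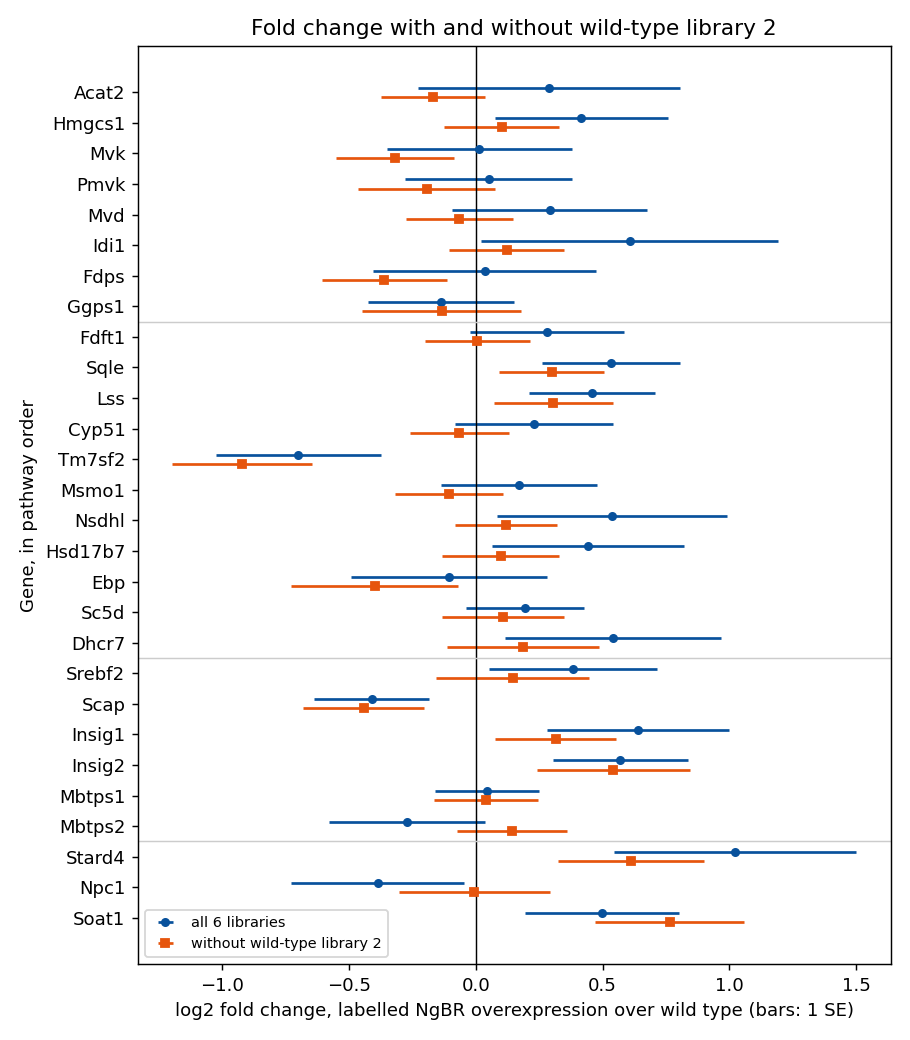
Log2 fold change, labelled NgBR overexpression minus wild type, for each gene, with all 6 libraries (blue circles) and without wild-type library 2 (orange squares), with bars of 1 SE. For 24 of the 28 genes the square lies to the left of the circle, and the squares of Tm7sf2, Soat1 and Stard4 lie farthest from 0, at -0.92, 0.76 and 0.61.

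For the mevalonate enzymes, the difference between the group means shrank or turned sign when wild-type library 2 was left out. Idi1 was at 10.9 ± 7.85 CPM in wild type and 16.6 ± 1.10 CPM in the labelled libraries (SD, n = 3 each). The log2 ratio of 0.61, with SE 0.59 and a 95% interval of -0.71 to 1.93 (adjusted p = 0.816 by edgeR), was 0.12 with SE 0.23 when that library was left out and 1.11 when wild-type library 3, the highest of its group, was left out. Hmgcs1 had a log2 fold change of 0.42 with all libraries and 0.10 without wild-type library 2. Acat2, Mvk, Pmvk, Mvd and Fdps turned from 0.29, 0.01, 0.05, 0.29 and 0.03 to -0.17, -0.32, -0.19, -0.06 and -0.36. Without that library, the labelled libraries all lay below wild type for Mvk and Fdps, with edgeR adjusted p = 0.775 and 0.749. Ggps1 was at -0.14 and -0.13.

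In the sterol branch, Sqle and Lss had the labelled libraries above every wild-type library. Over the 28 genes the CPM ranges of the groups were separate for 3, Sqle and Lss higher and Scap lower, against 18.6% of tested genes (9.21% higher and 9.37% lower). Sqle was at 98.4 ± 30.4 CPM in wild type and 142 ± 15.3 CPM in the labelled libraries (SD, n = 3 each), which gives a log2 ratio of 0.53 with SE 0.27 and a 95% interval of -0.08 to 1.15 (adjusted p = 0.525 by edgeR). Lss was at 33.0 ± 6.50 and 45.4 ± 9.64 CPM, which gives a log2 ratio of 0.46 (adjusted p = 0.566 by edgeR). Their ranges were also separate without wild-type library 2, with values of 0.30 and 0.31. Lss was 0.27 without labelled library 2, its highest, and without both libraries numbered 2 Sqle was 0.21 and Lss 0.12. Nsdhl, Dhcr7 and Hsd17b7 had log2 fold changes of 0.54, 0.54 and 0.44, and 0.12, 0.19 and 0.10 without wild-type library 2. Dhcr7 was 0.27 without labelled library 3 and Hsd17b7 0.26 without labelled library 2, their highest. Fdft1, Cyp51, Msmo1, Ebp and Sc5d lay between -0.11 and 0.28, and between -0.40 and 0.11 without wild-type library 2.

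Tm7sf2, a reductase of the C14 double bond, had the lowest value of the 28 genes. It was at 9.79, 4.97 and 7.71 CPM in wild type and 4.63, 3.86 and 5.35 CPM in the labelled libraries, so that wild-type library 2 lay among the labelled ones. It lies on chromosome 19, 6062821 to 6068373, minus strand. On average it was at 7.49 ± 2.42 and 4.61 ± 0.746 CPM (SD, n = 3 each), which gives a log2 ratio of -0.70 with SE 0.33 and a 95% interval of -1.44 to 0.04 (adjusted p = 0.464 by edgeR). Without wild-type library 2 it was -0.92 (edgeR adjusted p = 0.195), with unadjusted p = 0.0114 from edgeR, and without wild-type library 1, the highest for this gene, it was -0.45 (edgeR adjusted p = 0.901). Soat1 was the other gene with an unadjusted p under 0.05 in the fit without wild-type library 2 (2 of 28, against 10.9% of tested genes).

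Among the control genes, Srebf2 was at 217 ± 68.0 CPM in wild type and 283 ± 88.7 CPM in the labelled libraries (SD, n = 3 each), which gives a log2 ratio of 0.38 with SE 0.33 and a 95% interval of -0.36 to 1.13 (adjusted p = 0.780 by edgeR). The value was 0.15 without wild-type library 2, its lowest, and 0.12 without labelled library 2, its highest. Insig1 was at 31.0 ± 14.0 and 48.3 ± 9.93 CPM, which gives a log2 ratio of 0.64 with SE 0.36 (adjusted p = 0.592 by edgeR), or 0.32 without wild-type library 2. It was 0.15 without both libraries numbered 2. Insig2 was at 49.8 ± 4.30 and 73.9 ± 22.8 CPM, which gives a log2 ratio of 0.57 with SE 0.27 (adjusted p = 0.467 by edgeR). It was 0.54 without wild-type library 2, so the value for Insig2 did not rest on that library. It did vary with the labelled libraries, at 0.79 without library 1, its lowest, and 0.39 without library 2, its highest. Without both libraries numbered 2 it was 0.37. Scap was at 88.1 ± 4.37 and 66.3 ± 14.7 CPM, which gives a log2 ratio of -0.41 with SE 0.23 and a 95% interval of -0.92 to 0.10 (adjusted p = 0.582 by edgeR), and -0.44 without wild-type library 2. Leaving out labelled library 3, the lowest for Scap, gave -0.25. Mbtps1 and Mbtps2 had log2 fold changes of 0.04 and -0.27, and the sign of Mbtps2 turned to 0.14 without wild-type library 2. The interval for Mbtps1 was -0.42 to 0.51.

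Stard4 had the largest fold change of the 28 genes. Its means were 38.4 ± 22.3 CPM in wild type and 78.1 ± 23.4 CPM in the labelled libraries (SD, n = 3 each), which gives a log2 ratio of 1.02 with SE 0.48 and a 95% interval of -0.05 to 2.10 (adjusted p = 0.464 by edgeR). Labelled library 3, at 53.7 CPM, lay just under wild-type library 3, and the value without wild-type library 2 was 0.61 (edgeR adjusted p = 0.530), or 0.38 without both libraries numbered 2. Soat1 (chromosome 1, 156424525 to 156474331, minus strand) was at 143 ± 41.6 and 202 ± 62.2 CPM, which gives a log2 ratio of 0.50 with SE 0.30 (adjusted p = 0.636 by edgeR). Here leaving out wild-type library 2, the highest of its group, moved the value up to 0.76 (edgeR adjusted p = 0.360), and the labelled libraries then all lay above wild type. Leaving out labelled library 2, the highest of all, moved it down to 0.23 (edgeR adjusted p = 0.811). Without wild-type library 2 the ranges were separate for 7 of the 28 genes, 3 higher and 4 lower, against 29.1% of tested genes (14.1% higher and 15% lower). Npc1 was at -0.39 with all libraries and -0.01 without wild-type library 2.

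The precision of these values limits what they can show. The SE of the 28 genes spanned 0.21 to 0.59, with a median of 0.33, or 0.24 without wild-type library 2. In simulated counts with the depth and spread of this comparison, among 12502 genes, the test called 12.4% of the 97 that were made to differ 2-fold and 80.6% of the 98 that were made to differ 4-fold. Those genes were picked at random and drawn independently, with no library apart for a set of genes. The rates are therefore not those of the 28 genes.

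The labelled libraries were not level among themselves. The ratio of the highest to the lowest labelled library had a median of 1.48 and a maximum of 2.18. Labelled library 2 was the highest of its group for 13 genes, including Srebf2, Insig1, Insig2, Stard4, Npc1 and Soat1. It was the lowest for 8 genes, among them Fdps, Mvk, Ggps1, Ebp and Dhcr7. None of the 28 was at least 2-fold below or above the other labelled libraries in any of the 3. Of tested genes, 4.12%, 8.76% and 5.07% were that far below in libraries 1, 2 and 3, and 2.38%, 7.35% and 7.62% that far above. The gap of wild-type library 2 had no counterpart of that size there.

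Per kilobase of exon, where levels of different genes can be compared, Srebf2 had the highest group mean of the 28 genes, at 30.2 CPM per kb in wild type and 39.4 in the labelled libraries. Acat2, Hmgcs1, Cyp51 and Mbtps1 followed in wild type at 25.9, 21.2, 21.1 and 21.0 CPM per kb. Dhcr7, Tm7sf2 and Ggps1 were the lowest, at 1.44, 1.70 and 2.27 CPM per kb in wild type and 2.10, 1.05 and 2.06 in the labelled libraries. These are group means, and the wild-type means include the low library 2. By library, Acat2 was above Srebf2 in wild-type library 3, at 37.4 against 35.1 CPM per kb, and in labelled library 3, at 35.8 against 27.7. In wild-type library 2, Mbtps1 and Soat1 were above Srebf2, at 20.9 and 19.5 against 19.3 CPM per kb. Exonic length pools all annotated exons of a gene, so values of genes with long alternative ends are understated.

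Other genes of the pathway were examined in 3 lists. Of 13 genes that use isoprenoids, such as the protein prenyltransferases and the ubiquinone enzymes, 13 were tested. Of these, 0 were called, against 3.39% of all tested genes, and the median log2 fold change was 0.01. The extremes were Rabggta, a subunit of the Rab geranylgeranyl transferase, at 0.45 and Rce1, the CAAX protease, at -0.25. Dhdds, the partner of NgBR, was at 44.8, 24.2 and 41.0 CPM in wild type and 42.2, 32.3 and 39.0 CPM in the labelled libraries, again lowest in wild-type library 2. None of the list was at least 2-fold lower there, against 7.45% of all tested genes. Pggt1b, the beta subunit of the enzyme that attaches geranylgeranyl groups, was 2.07-fold higher in that library, with an exonic length of 11749 bases. It was named after its values were seen.

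Of 13 regulators of SREBP and of sterol sensing, 13 were tested and 0 called, against 3.39% of all tested genes. The median log2 fold change was -0.03. Sp1 had the highest value, 0.30, and Syvn1, a ubiquitin ligase of the endoplasmic reticulum, the lowest, -0.35. The NF-Y genes Nfya, Nfyb and Nfyc lay between -0.05 and 0.02. Srebf1, the gene of SREBP1, was at 66.6, 59.6 and 71.3 CPM in wild type and 72.8, 82.7 and 66.8 CPM in the labelled libraries, so that it did not share the gap of Srebf2. Erlin1, whose product binds the SREBP complex in the endoplasmic reticulum, was the one gene of the list at least 2-fold higher in wild-type library 2, at 30.8, 94.8 and 37.8 CPM. It was named after its values were seen.

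The third list held other sterol enzymes and transport genes, of which 12 are reported. Of these, 10 were tested and 0 called, against 3.39% of all tested genes. The median log2 fold change was 0.01, 5 being positive and 5 negative. None of these 10 was at least 2-fold lower in wild-type library 2, against 7.45% of all tested genes, or 2-fold higher, against 5.38%. The median deviation there was -0.24, with 8 genes below the mean of wild-type libraries 1 and 3 and 2 above. Tmem97 and Acat1, named after their values were seen, were 1.97-fold and 1.83-fold lower there. Gramd1a, a sterol transfer protein, had the highest value, 0.33 (adjusted p = 0.695 by edgeR), at 27.2, 22.8 and 30.8 CPM in wild type and 28.5, 37.4 and 35.4 CPM in the labelled libraries, with overlapping groups. Gramd1c, of the same family, was the lowest of those tested at -0.71, from 19, 19 and 26 counts in wild type and 3 to 5 counts in the labelled libraries. Soat2, the acyltransferase of liver and gut, was below the filter and not tested. It had 10, 269 and 12 counts in libraries 1, 2 and 3 of wild type, and 0, 1 and 2 counts in the labelled ones, so nearly all its reads came from wild-type library 2. It was named after its values were seen.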

How the data were processed

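The authors deposited raw counts per gene for 6 libraries, with no normalization, made from 1.5 micrograms of total RNA each with a SMARTer mRNA kit, per the labels' protocols. The submitters' processing notes name HISAT2 2.0.5, featureCounts 1.5.0-p3, DESeq2 and mm10. Neither the annotation release nor the strand setting is stated there or in the labels, so reads of overlapping or antisense genes may be shared. All sample columns matched 1 library each by title.

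Counts were tested with edgeR 4.0.16 in R 4.3.3: filterByExpr by group, TMM factors, quasi-likelihood F test with no covariate, and adjustment over all tested genes, called under 0.05. The SE is the fold change over the square root of F. Deviations used log2 CPM with a prior count of 2. Exonic lengths and GC content came from a GENCODE annotation of mm10 that held 97.8% of genes. Trends with length and GC were fitted by lowess per library (span 0.3) over tested genes. The fit was tested on simulated data. Alternatives were other scaling factors, filters, DESeq2 1.42.0, length and GC offsets, a replicate block, and libraries left out.

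The genes and lists were chosen with earlier results of these data known. All 28 genes are named, each library being given for those with an absolute log2 fold change of at least 0.5, separate groups, the 5 most extreme deviations of wild-type library 2 on either side, and Srebf2, Scap, Insig1 and Insig2, and for some others chosen after their values were seen. From the other lists, called genes and the highest and lowest fold changes are named. Some genes of the pathway are not reported here, and values over the lists leave them out.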

Additional observations from a re-analysis of the deposited data

How the results depend on the processing

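Under every alternative run, 0 of the 28 genes were called. The genes called among all tested numbered 429 of 12651 (3.39%). They numbered 688 of 21036 (3.27%) with no filter on low counts and 719 of 12651 (5.68%) with DESeq2. With 1 library left out they numbered 225 to 374, or 1.66% to 2.77% of the genes tested in each fit. Without both libraries numbered 2, 581 of 12833 were called (4.53%). The fit with the replicate number as a block (replicate block) called 719 (5.68%), with a median log2 fold change of 0.36 over the 28 genes. In their departures from the group mean over tested genes, same-numbered libraries correlated at 0.01, 0.34 and 0.43. Wild-type libraries 2 and 3 each correlated best with the labelled library of the same number. Wild-type library 1 correlated best with labelled library 3, at 0.19. Whether the numbers mark pairs or a batch was not tested. The median over the 28 genes was 0.23 to 0.34 under the other scalings, filters and offsets, 0.07 to 0.44 with 1 library left out and -0.02 without both libraries numbered 2. The deviation of wild-type library 2 was -1.07 to -0.94.

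Signs turned for some genes, Srebf2 and Hsd17b7 among them, from 0.38 and 0.44 with all libraries. Mvk was -4.784e-05 with library totals only. With no filter, Mvk, Fdps and Mbtps1 were at -0.034, -0.014 and -0.0076. Without both libraries numbered 2, Acat2 was -0.082, Mvk -0.16, Pmvk -0.14, Mvd -0.047, Fdps -0.20, Ggps1 0.10, Fdft1 -0.079, Cyp51 -0.091, Msmo1 -0.093, Hsd17b7 -0.085, Srebf2 -0.12 and Mbtps2 0.10. With 1 library left out, the ranges that crossed 0 were -0.17 to 0.65 for Acat2, -0.32 to 0.24 for Mvk, -0.19 to 0.21 for Pmvk, -0.064 to 0.53 for Mvd, -0.36 to 0.31 for Fdps, -0.38 to 0.089 for Ggps1, -0.065 to 0.45 for Cyp51, -0.10 to 0.35 for Msmo1, -0.48 to 0.12 for Ebp and -0.45 to 0.14 for Mbtps2. Apart from the libraries that were left out, the cause was not tested. A library left out of 3 leaves 2 in its group.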

Other observations

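Further genes set wild-type library 2 apart from libraries 1 and 3, all picked after their values were seen. Atf3, a stress transcription factor, was at 5.36, 47.0 and 6.11 CPM in wild type and at 1.34 to 1.54 CPM in the labelled libraries. Slc7a11, the cystine carrier, was at 5.18, 82.4 and 4.36 CPM in wild type and 2.20 to 5.44 CPM in the labelled libraries. Chac1, which degrades glutathione, was at 8.10, 79.0 and 7.04 CPM, against 6.31 to 11.8 CPM. Asns, asparagine synthetase, was at 143, 523 and 132 CPM, against 122 to 155 CPM. All 4 were high in that library only.

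Genes of dividing cells were low there. Mcm5, of the replication helicase, was at 188, 43.1 and 200 CPM in wild type and 117 to 258 CPM in the labelled libraries. Plk1, a mitotic kinase, was at 60.8, 14.2 and 70.1 CPM, against 53.6 to 96.4 CPM. Mki67, a marker of cycling cells, was at 503, 187 and 311 CPM, against 373 to 1100 CPM. Ccnb1, cyclin B1, was at 88.7, 58.0 and 101 CPM, a smaller gap. How these genes relate to the sterol genes was not tested.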
